A study of Drosophila melanogaster with 12 samples.

Results

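Axon guidance genes encode the ligands and receptors with which a growing nerve process finds its way, and 10 of them were followed here in Drosophila melanogaster testes that lack Su(Hw) and in wild-type testes. The 10 were sli, robo1, robo2, NetA, NetB, fra, Sema1a, PlexA, Dscam1 and Fas2, and a member is a probe set whose only symbol in the platform annotation is 1 of these genes. Of the 10 genes, 6 had such a probe set, which gave 8 probe sets of the 18769 tested; robo2, NetA, PlexA and Fas2 were not analysed here. Transcript levels were measured on 12 Affymetrix arrays, 3 for each of 4 genotypes, from testes of 3-day-old males. The 2/v null carries the su(Hw) alleles 2 and v, written su(Hw)[2]/su(Hw)[v], in a y[1]w[67c23] stock that also has ct[6] and f[1]. The A2663/2 null carries su(Hw)[A2663]/su(Hw)[2] together with y[1]w[67c23] and the insertion P{EPgy2}Amt[EY02782]. Of the wild types for su(Hw), BL15598 has the same y[1]w[67c23] and P{EPgy2}Amt[EY02782], and Canton S has none of these alleles in its label. Both nulls share allele 2, and every genotype except Canton S shares y[1]w[67c23], so A2663/2 against BL15598 is the pair with a common labelled background. Each null is 1 combination of alleles, and each RNA sample pooled about 100 pairs of testes.

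In the nervous system, secreted Slit repels growth cones through Roundabout receptors, Netrins attract them through Frazzled, and the transmembrane Semaphorin 1a signals with Plexin A both as a ligand and as a receptor. Dscam1 is an immunoglobulin-family receptor known for its very large number of splice forms and for the self-avoidance of neurites. Outside neurons, Slit and Robo proteins are known in the fly testis niche, where they take part in the competition of cyst stem cells. Su(Hw) is a zinc-finger protein of the gypsy insulator that is also known to repress neuronal genes in the ovary. The comparison asks whether guidance genes differ in level in testes without it.

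The signal is the deposited linear intensity of a probe set, and differences are given on the log2 scale from a limma fit of the 4 genotype means, as null minus wild type unless a pair is named. Calls rest on an adjusted p under 0.05, after Benjamini-Hochberg adjustment over all 18769 probe sets. The SEs, intervals and p-values of this fit measure the spread among arrays within a genotype, not the spread among stocks. The 183 control probe sets of the array had a median signal of 20.4, and a probe set below this level has no interpretable fold here. The su(Hw) signal was 19.2 to 89.6 on the 6 null arrays, against 864 to 1544 on the 6 wild-type arrays (log2 -4.52, SE 0.283, adjusted p = 1.04e-05). Array medians ran from 190.2 to 242, and the testis tubulin gene betaTub85D averaged 31128 ± 1785 in nulls and 30677 ± 4785 in wild types (SD, n = 6 each). The labels call the 3 arrays of a genotype biological replicates. In bulk testis RNA, a change in the number of cells of a type and a change in RNA per cell cannot be told apart.

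Sema1a was the single member that changed in the nulls as a group: it rose 2.18-fold, while the other 7 probe sets did not pass the test. That is 12.5% of the members against a background of 13.5% of all probe sets called null against wild type, so the share of members called was close to that of any probe set. At an unadjusted p under 0.05, 3 members were higher and 0 lower (Sema1a, fra and the brighter probe set of sli), where 26.0% of all probe sets passed in either direction. The median log2 difference was 0.12 over the 8 members and 0.05 over all probe sets. In limma, 0 members passed with 1 sign in every null and wild-type pair, of which there are 4 (background 2.05%), and for 0 members did the 6 null values lie wholly above or below the 6 wild-type values (background 6.41%). The 4 genotypes also did not separate any member in an F test over all of them (limma, background 15.6% at an adjusted p under 0.05), the smallest adjusted p being 0.0691 for Sema1a. With no member past that test, no genes of like pattern were named.

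**Figure D1:**
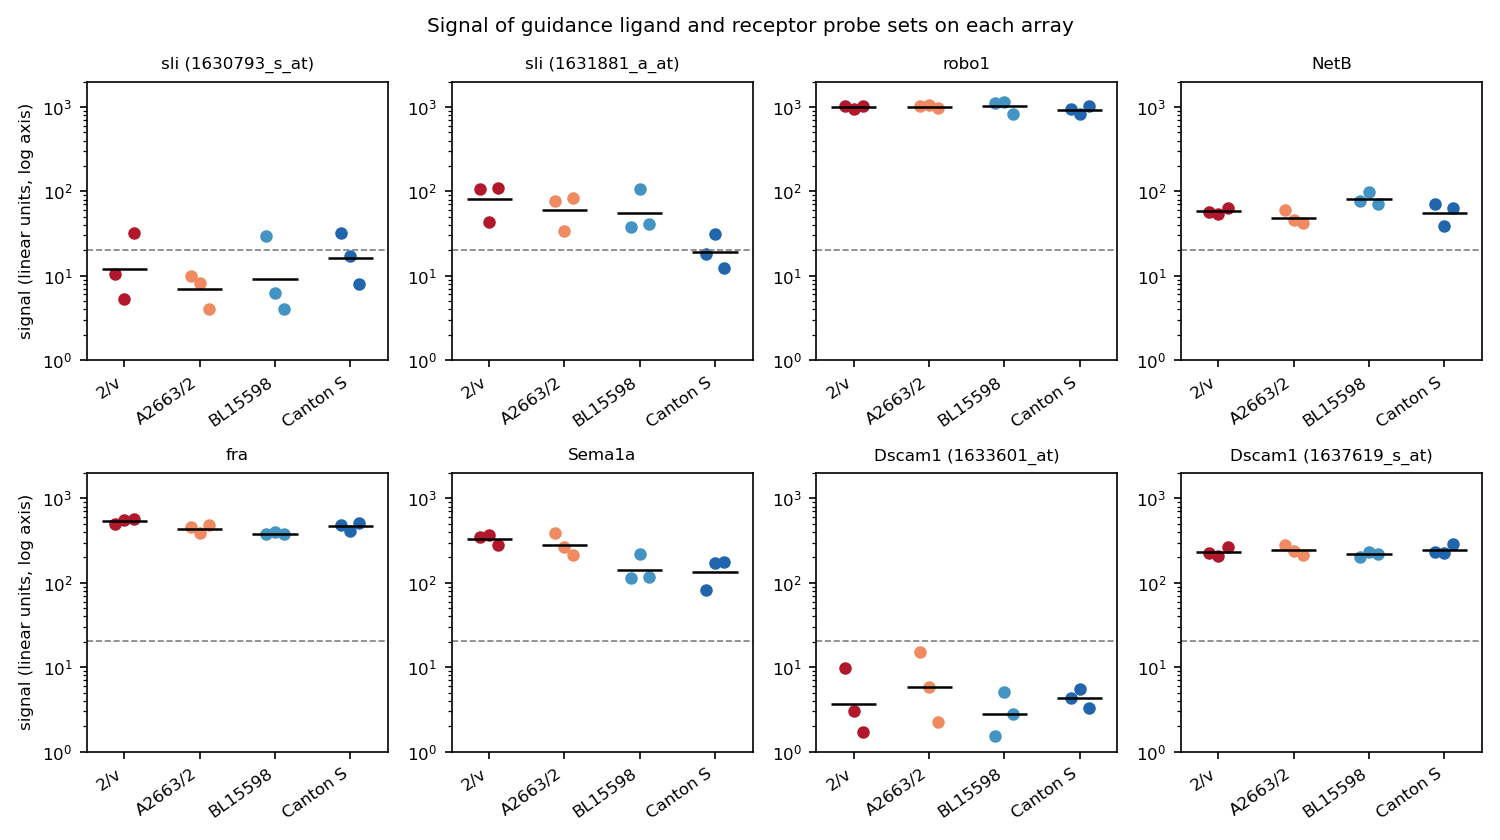
Each panel plots 1 probe set, with its signal in linear units on a log axis for the 3 arrays (points) of 2/v, A2663/2, BL15598 and Canton S, their geometric mean (bar) and the control level of 20.4 (dashed line). Sema1a lay between 211 and 388 on the null arrays and between 81.6 and 217 on the wild-type arrays, while robo1 and the brighter Dscam1 probe set were level across genotypes and the other Dscam1 probe set stayed below the control level.

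Sema1a encodes a transmembrane semaphorin, which acts as a guidance cue and, in some neurons, as a receptor. Its probe set, 1634588_at, gave 347, 369.5 and 282 on the 2/v arrays and 388, 265 and 211 on the A2663/2 arrays, against 113, 217 and 118 in BL15598 and 81.6, 174 and 178 in Canton S. Of the 6 null arrays 5 lay above every wild-type array, while A2663/2 replicate 3, at 211, lay just under BL15598 replicate 2, at 217. The mean was 311 ± 68.6 over the nulls and 147 ± 50.7 over the wild types (SD, n = 6 each), a log2 difference of 1.12 with a 95% confidence interval of 0.54 to 1.71 (SE 0.262, limma adjusted p = 0.0194).

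Taken pair by pair, Sema1a was higher in the null each time, and no single pair passed the test. The log2 difference was 1.22 in 2/v against BL15598 (adjusted p = 0.0705) and 1.28 in 2/v against Canton S (adjusted p = 0.0596). In A2663/2 it was 0.97 against BL15598, the pair of common background (adjusted p = 0.18), and 1.03 against Canton S (adjusted p = 0.131). The 3 null and 3 wild-type arrays did not overlap in 3 of these 4 pairs, the exception being A2663/2 against BL15598. Between the nulls the difference was 0.25, 2/v minus A2663/2, with an interval of -0.59 to 1.08 (adjusted p = 0.934), and between the wild types 0.06, BL15598 minus Canton S, with an interval of -0.77 to 0.90 (adjusted p = 0.949). These intervals leave room for differences of over 1.5-fold between the stocks. The call null against wild type remained under all 19 alternative settings, with log2 differences of 0.94 to 1.28 and adjusted p-values of 0.00205 to 0.0495. The next measured genes on either side of Sema1a in the RefSeq gene order, CG17834 (log2 0.09, adjusted p = 0.619) and Glt (log2 -0.32, adjusted p = 0.172), did not pass the test.

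**Figure D2:**
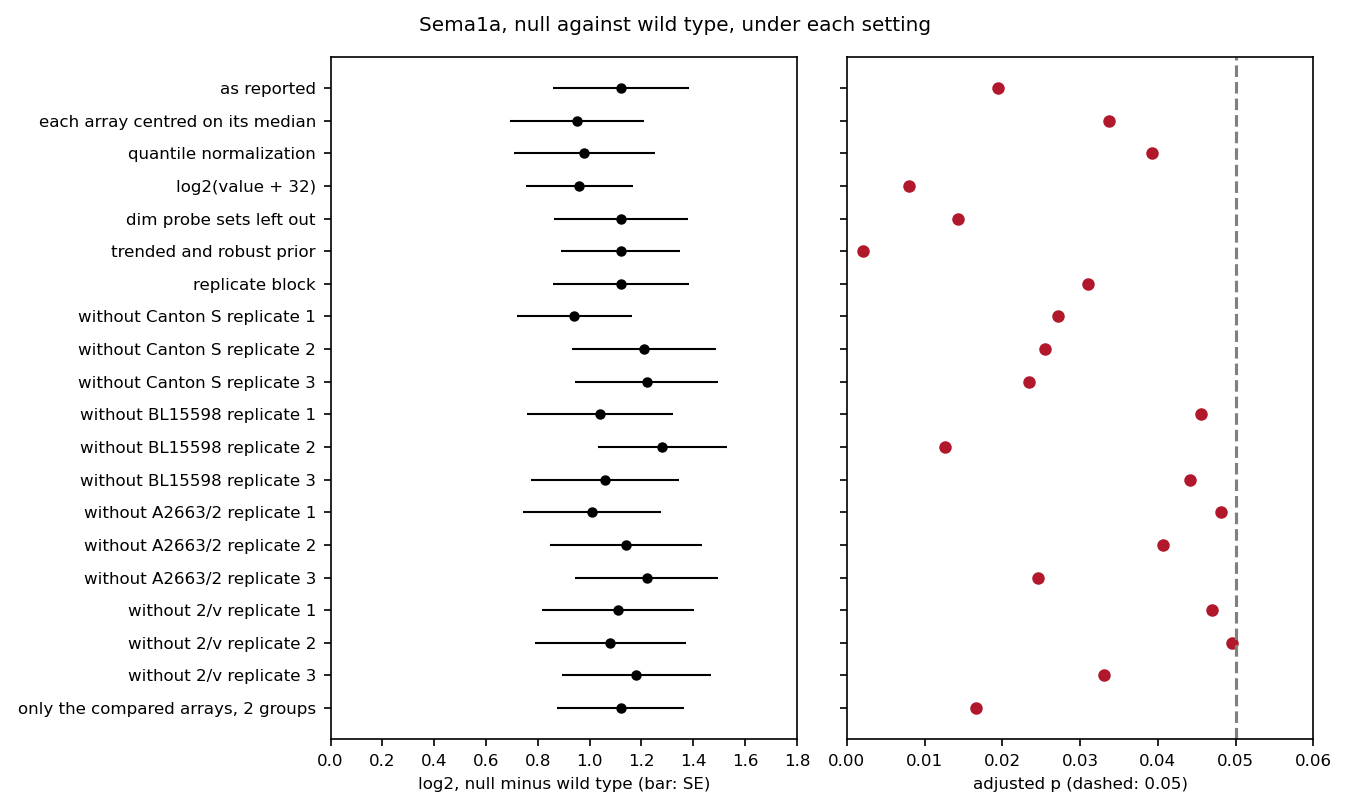
The left panel plots the log2 difference of Sema1a, null minus wild type, with its SE, and the right panel its adjusted p, for the reported fit and 19 alternatives. The difference stayed between 0.94 and 1.28, and the adjusted p stayed under the dashed 0.05 line, closest at 0.0495 without 2/v replicate 2.

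Marker genes of other tissues were read beside Sema1a, against the same background of 13.5%. Each marker was read by its brightest probe set, while the background counts every probe set, dim ones among them. Of 13 neuronal markers measured, 3 rose (nSyb, cac and Appl), 0 fell and 10 did not pass, which is 23.1% called. The same 3 were called higher and 0 lower in A2663/2 against BL15598 (limma adjusted p = 0.00498, 0.00198 and 0.0242). In that pair 6.83% of all probe sets were called. The 13 markers had a median log2 difference of 0.57 null against wild type, where that of all probe sets was 0.05. Their summed signal was 4915 to 6207 on the null arrays and 4528 to 4886 on the wild-type arrays, close but without overlap. The brightest marker in these sums, Csp, averaged 3013 ± 372 in nulls and 2949 ± 193 in wild types (limma adjusted p = 0.912). Array medians were 211 to 242 in nulls and 190.2 to 219.6 in wild types. The sums were read at the deposited scaling only. The pan-neuronal gene elav averaged 91.8 ± 26.3 in nulls and 91.3 ± 17.4 in wild types (SD, n = 6 each, log2 -0.02, adjusted p = 0.966), and no marker was at 0, although Appl and VGlut had geometric means below the control level over the 12 arrays. Of 6 glial markers measured, limma called 0, and their summed signal was 4427 to 5548 in nulls and 4749 to 5249.7 in wild types. Of 6 fat body markers 4 rose (66.7%) and 2 did not pass, with a median log2 difference of 0.78. Their sums overlapped, at 11417 to 12988 in nulls and 10121 to 14694 in wild types. In A2663/2 against BL15598, the pair of common background, 1 of the 6 was called, Obp99b (log2 2.74, adjusted p = 0.000431). Lsp2, Fbp1 and Fbp2 did not pass in that pair (adjusted p = 0.361, 0.282 and 0.651). Of 10 accessory gland markers limma called 0, with adjusted p-values of 0.229 to 0.816, while their median log2 difference was 0.71 and their sums were 39478 to 82197 in nulls and 29315 to 57777 in wild types. Of 10 muscle sheath markers 3 fell (30%; Tm2, Prm and Mf) and 7 did not pass, with sums of 29230.2 to 32732 in nulls and 32625 to 43852 in wild types. The probe sets of Mf disagreed, since the brighter differed by -0.46 (adjusted p = 0.0144) and the other by 0.60 (adjusted p = 0.00215) on the log2 scale. The part of these tissues in the rise of Sema1a was not tested.

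None of the other semaphorin and plexin genes measured passed the test, and neither did Mical. PlexA, the known receptor of Sema1a, was not analysed here. PlexB, the receptor of the secreted semaphorins, averaged 1787 ± 201 in nulls and 1812 ± 182 in wild types (log2 -0.02, adjusted p = 0.925). Mical, the oxidoreductase that acts on actin downstream of Plexin A, averaged 2248 ± 280.1 in nulls and 2463 ± 618 in wild types (log2 -0.10, adjusted p = 0.688). Of the other semaphorins, Sema2b averaged 84.1 ± 13.4 and 67.8 ± 12.9 in nulls and wild types (log2 0.32, adjusted p = 0.244), and Sema5c 427 ± 59.5 and 428 ± 145 (log2 0.05, adjusted p = 0.916; SD, n = 6 each).

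The Slit ligand was measured by a brighter and a dimmer probe set. The brighter, 1631881_a_at, gave 107, 43.9 and 110.5 in 2/v and 76.6, 34.3 and 83.8 in A2663/2, against 37.6, 107 and 40.8 in BL15598 and 18.2, 31.3 and 12.4 in Canton S. Canton S was the low genotype, and BL15598 replicate 2 lay among the highest null arrays. Null against wild type, the log2 difference of 1.10 (SE 0.402, interval 0.20 to 2.01) did not pass the test (adjusted p = 0.112), and it was 0.61 with an offset of 32 before the log. The probe set was higher in 2/v than in Canton S (adjusted p = 0.0488), the only member called in that pair, where 10.4% of all probe sets were called. Since 2 of the 3 Canton S arrays lay below the control level, no size is given for differences from Canton S, and the call was lost under 12 of 19 alternatives. BL15598 and Canton S did not overlap but did not pass the test (adjusted p = 0.148), and A2663/2 minus BL15598 was 0.14 (SE 0.568, adjusted p = 0.931).

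The dimmer sli probe set, 1630793_s_at, was below the control level on 9 of 12 arrays. It ranged from 4.06 to 31.9 in nulls and from 4 to 32 in wild types, and its log2 difference was -0.41 (interval -1.81 to 0.99, adjusted p = 0.744). Pearson's r between the sli probe sets was -0.15 over the same 12 arrays. With the dimmer mostly below the control level, this r cannot show whether the probe sets disagree. The level of sli is uncertain on this array.

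The Roundabout receptor gene robo1, read by 1626774_s_at, was level across the genotypes. Its signal was 1031, 957 and 1014 in 2/v and 1022, 1040.1 and 962 in A2663/2, against 1123, 1154 and 824 in BL15598 and 939, 821 and 1015 in Canton S. Every null array lay inside the wild-type range. The log2 difference was 0.05 with an interval of -0.18 to 0.28 (adjusted p = 0.818). At the deposited scaling, this interval bounds a change in either direction to about 1.21-fold. The sign of the difference turned with each array centred on its median (log2 -0.12, adjusted p = 0.419). None of its 6 pairs of genotypes was called.

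A regulator of this receptor did change. The gene comm encodes Commissureless, which keeps Robo from the surface of axons that cross the midline, and it rose 1.95-fold (log2 0.96, SE 0.135, adjusted p = 0.00132). It gave 465, 498 and 479 in 2/v and 419, 335 and 385 in A2663/2, against 212, 200 and 203 in BL15598 and 326, 211 and 185 in Canton S. The null and wild-type arrays did not overlap, with Canton S replicate 1, at 326, next to A2663/2 replicate 2, at 335. It was called in 3 of the 4 pairs, among them A2663/2 against BL15598 (log2 0.88, adjusted p = 0.0236). In the fourth, A2663/2 against Canton S, the log2 difference was 0.69 and the adjusted p 0.0531. Its paralog comm2 averaged 138 ± 31.3 in nulls and 147 ± 41 in wild types (SD, n = 6 each, adjusted p = 0.838).

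Of the Netrin genes NetB was measured, by probe set 1636954_at. It gave 56.6, 54.4 and 63.4 in 2/v and 60.4, 45.5 and 42.4 in A2663/2, against 77.2, 98.2 and 71.4 in BL15598 and 71.3, 38.9 and 63.6 in Canton S. BL15598 was the high genotype, and its 3 arrays lay above all 9 others. No pair was called: the log2 difference was -0.74 in A2663/2 against BL15598 (SE 0.238, adjusted p = 0.111) and 0.05 in 2/v against Canton S (SE 0.238, adjusted p = 0.95). Null against wild type it was -0.35 with an interval of -0.72 to 0.03 (adjusted p = 0.237).

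Frazzled, the attractive Netrin receptor of the DCC family, was higher in 2/v than in BL15598 and was not called in any other comparison. The signal of fra, on 1623827_a_at, was 502, 550.4 and 567 in 2/v and 454, 390.3 and 478 in A2663/2, against 376, 402 and 374 in BL15598 and 484, 415 and 507 in Canton S. It was 1.41-fold higher in 2/v than in BL15598 (log2 0.49, SE 0.119, adjusted p = 0.0287), where 10.6% of all probe sets were called. The means had the order 2/v, Canton S, A2663/2, BL15598 from high to low, so that a wild type stood between the nulls, and neighbours in this order were not told apart by the test. Null against wild type, fra differed by 0.20 (interval 0.01 to 0.39, adjusted p = 0.166). The call in 2/v against BL15598 ended under 8 of 19 alternatives, including the fit without each single array of the pair. The repulsive Netrin receptor gene unc-5 averaged 224 ± 35 in nulls and 201 ± 34.4 in wild types (SD, n = 6 each, log2 0.16, adjusted p = 0.48).

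Dscam1 was measured by a bright and a dim probe set. The bright one, 1637619_s_at, gave 225, 209 and 269 in 2/v and 281, 239 and 212 in A2663/2, against 203, 233 and 217 in BL15598 and 235, 224 and 286 in Canton S. All 4 genotypes overlapped, and the log2 difference of 0.04 had an interval of -0.21 to 0.28 (adjusted p = 0.874). At the deposited scaling, this is a bound of about 1.21-fold. The sign of the difference turned with median centring and quantile normalization. The dim one, 1633601_at, lay below the control level on all 12 arrays, at 1.71 to 15.2 in nulls and 1.55 to 5.47 in wild types. Which exons of Dscam1 they read was not examined. Among the Dscam paralogs, Dscam2 averaged 169 ± 47.3 in nulls and 150.4 ± 40.7 in wild types (adjusted p = 0.724), and Dscam3 618 ± 179 and 647 ± 450.4 (adjusted p = 0.577; SD, n = 6 each).

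**Figure D3:**
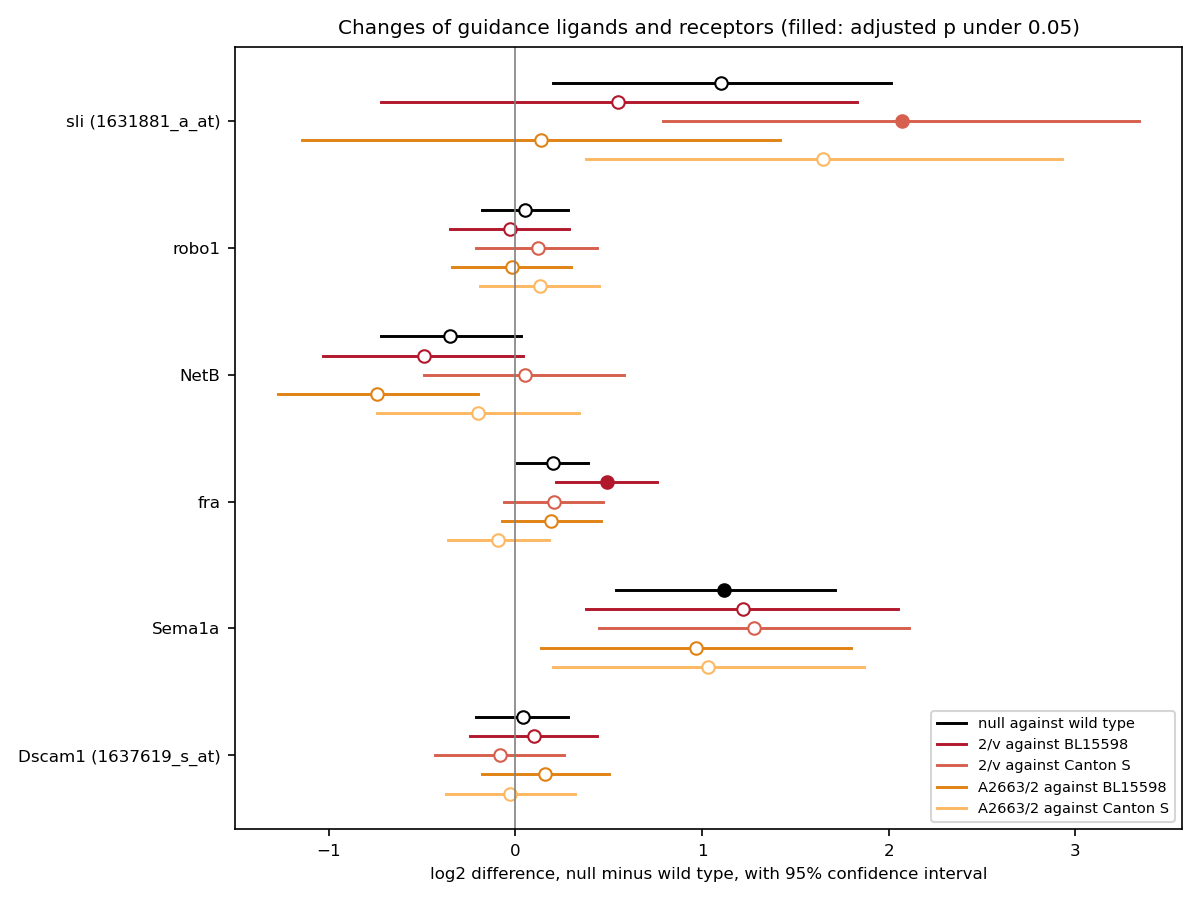
Points give the log2 difference of each member probe set, null minus wild type, with its 95% confidence interval, for the nulls against the wild types and for each of the 4 pairs; the sli and Dscam1 probe sets that lay mostly below the control level are left out. Filled points passed the test: Sema1a for the nulls as a group (1.12), fra in 2/v against BL15598 (0.49) and sli in 2/v against Canton S, where the dim Canton S signal leaves the plotted size of sli without meaning.

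In the remaining comparisons 0 member probe sets were called by limma. Those were A2663/2 against BL15598 (background 6.83%), A2663/2 against Canton S (9.21%), BL15598 against Canton S (9.58%) and 2/v against A2663/2 (0.927%). At an unadjusted p under 0.05 the members that passed numbered 2 in A2663/2 against BL15598 (19.5% of all probe sets) and 2 in A2663/2 against Canton S (21.7%). Between the wild types 3 members passed this way (22.0%), and between the nulls 1 (8.86%). Variation between replicates differed among the members. The SD within genotypes was 0.12 on the log2 scale for fra, 0.161 for robo1 and 0.174 for the bright Dscam1 probe set, 0.299 for NetB, 0.481 for Sema1a and 0.748 for the bright sli probe set, against a median of 0.314 over all probe sets.

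Other genes of the guidance pathways were read from 3 lists with 75 entries, of which 60 were measured, each by its brightest probe set. Of the 60 genes 6 rose, 4 fell and 50 did not pass null against wild type, which is 16.7% against the background of 13.5%, and their median log2 difference was 0.09. The background counts every probe set, dim ones among them, so the shares are not like for like. Of 30 other ligands and receptors 3 rose, 2 fell and 25 did not pass. The list of 17 adhesion genes held 3 that rose, 1 that fell and 13 without a call, and its median log2 difference was 0.35. Of 13 intracellular effectors 1 fell and 12 did not pass.

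Ptp52F, a receptor tyrosine phosphatase of motor axon guidance, fell in the nulls. It gave 187, 204 and 179.7 in 2/v and 164, 179 and 184 in A2663/2, against 313, 321 and 257 in BL15598 and 458, 404 and 415 in Canton S. The 2 groups did not overlap, and the gene fell in all 4 pairs (log2 -0.96, SE 0.0835, adjusted p = 7.57e-05 null against wild type), although BL15598 was also lower than Canton S (log2 -0.52, adjusted p = 0.0216). The gene beat-Ia, whose product loosens motor axon bundles, averaged 111 ± 28.3 in nulls and 56.6 ± 15.4 in wild types (SD, n = 6 each) and rose 1.96-fold (adjusted p = 0.0245). Of its 4 pairs 1 was called, 2/v against Canton S (adjusted p = 0.0391), A2663/2 against BL15598 had an adjusted p of 0.328, and the call of the nulls as a group was lost under 4 of 19 alternatives. The receptor-like gene otk averaged 122 ± 31.4 in 2/v and 133 ± 37.3 in A2663/2, against 408 ± 48 in BL15598 and 126 ± 43.4 in Canton S (SD, n = 3 each). Its call as lower (adjusted p = 0.0367) thus rests on BL15598 alone, and it was lost under 11 of 19 alternatives. Dscam4, named after its values were seen, averaged 245 ± 9.7 in 2/v and 126 ± 41.2 in A2663/2, against 91.1 ± 24.7 in BL15598 and 125 ± 38.8 in Canton S (SD, n = 3 each, adjusted p = 0.0418 null against wild type). Its call was lost under 13 of 19 alternatives.

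Among adhesion genes, klg, which encodes the homophilic immunoglobulin protein Klingon, rose 5.04-fold (log2 2.33, SE 0.163, adjusted p = 2.05e-05) and was called in all 4 pairs. It gave 624, 584 and 993 in 2/v and 276, 284 and 362 in A2663/2, against 114, 109 and 90 in BL15598 and 83.1, 67.2 and 99.7 in Canton S. Every null array lay above every wild-type array, and 2/v above A2663/2. CadN2, a paralog of N-cadherin, gave 157, 148 and 195 in 2/v and 184, 225 and 194 in A2663/2, against 106, 126 and 111 in BL15598 and 16.4, 50.3 and 70.5 in Canton S. It rose 2.74-fold without overlap (adjusted p = 0.0124), and 1 of its Canton S arrays lay below the control level. Both nulls passed against Canton S, while against BL15598 the log2 difference was 0.54 in 2/v (adjusted p = 0.528) and 0.81 in A2663/2 (adjusted p = 0.348), and the call of the nulls as a group was lost in the fit of 6 against 6 arrays (adjusted p = 0.0674). Ama, which encodes the secreted ligand of Neurotactin, averaged 315 ± 61.3 in 2/v and 172 ± 6.43 in A2663/2, against 187 ± 23.1 in BL15598 and 137 ± 39.7 in Canton S (SD, n = 3 each). It was called higher null against wild type (adjusted p = 0.0473), but A2663/2 lay between the wild types, and the call was lost under 12 of 19 alternatives. Lac, which encodes Lachesin of the septate junctions, fell 1.24-fold (adjusted p = 0.0262), lost under 7 of 19, all of them fits with fewer or pooled samples.

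The single effector that passed was trio, the exchange factor that activates Rac in growth cones. It averaged 126 ± 26.5 in 2/v and 114 ± 15.3 in A2663/2, against 223 ± 12.1 in BL15598 and 149.6 ± 26.7 in Canton S (SD, n = 3 each), and fell 1.53-fold (log2 -0.61, SE 0.131, adjusted p = 0.0132). Against Canton S neither null passed the test. The kinase gene Abl, which acts downstream of Robo and Frazzled, had a log2 difference of 0.39 (adjusted p = 0.164), and its substrate gene ena one of 0.05 (adjusted p = 0.903).

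**Figure D4:**
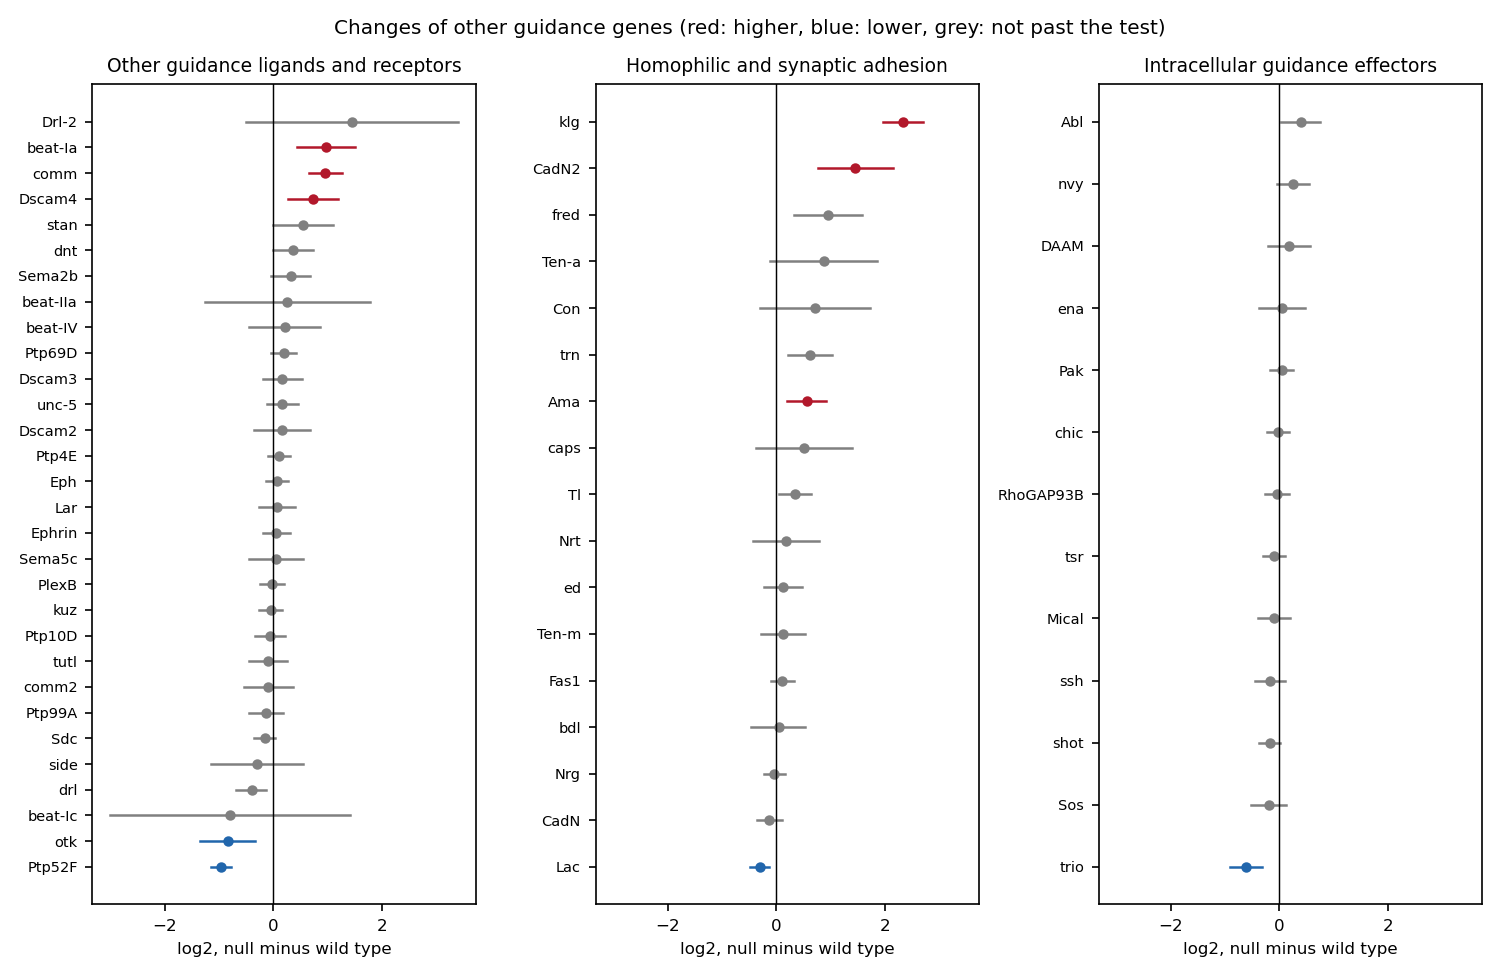
Each point is a gene of 1 of the 3 pathway lists, with its log2 difference, null minus wild type, and 95% confidence interval on a shared axis. Most genes sit near 0 in grey, while klg (2.33), CadN2 (1.45), beat-Ia, comm, Dscam4 and Ama are higher in red, and Ptp52F (-0.96), otk, Lac and trio are lower in blue.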

How the data were processed

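Testis RNA of 4 genotypes was measured on 12 arrays, 3 biological replicates each per the labels. Each probe set has a deposited intensity, not on a log scale. The submitters' processing notes name RMA and Partek 6.5 without saying what each did. Trimming 2% of probe sets from each end left a mean of 1500.03 on every array, so the deposited intensities share a common trimmed mean. Which processing step set it is open. No detection calls were used, and the number of arrays limits the precision.

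Control probe sets (183) were left out. The log2 of the deposited intensity went into a model of 4 genotype means with 8 residual degrees of freedom and empirical Bayes moderation (limma 3.58.1, R 4.3.3). P-values are two-sided, adjusted by Benjamini-Hochberg over 18769 probe sets. Signals with an SD are arithmetic means, and folds are ratios of geometric means. Symbols came from the platform annotation, updated through RefSeq gene IDs (13647 probe sets with 1 symbol, 402 with several, 4720 with none).

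The rule names every member probe set, su(Hw), and up to 4 called genes per pathway list by smallest adjusted p; partner genes without a call and Dscam4 were added outside it. The members and lists were chosen with earlier results of these data known. The marker lists cover neurons, glia, muscle sheath, cyst and hub cells, accessory gland, fat body, hemocytes, tracheal and epithelial cells, early germline, and spermatocytes with spermatids. Beside those given in the report, limma called 1 lower of 10 cyst and hub genes, 1 higher of 10 hemocyte genes, 0 of 5 tracheal genes, 1 higher of 7 early germline genes, and 3 higher and 1 lower of 15 spermatocyte and spermatid genes, null against wild type.

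Alternatives were median centring, quantile normalization, an offset of 32 before log2, the removal of dim probe sets, a prior that is trended and robust, the replicate number as a block, only the compared arrays, leaving out each array and, for the lists, the mean of a gene's probe sets. The fitting code was tested on simulated data with known shifts. Null against wild type, it recovered 12% of shifts of log2 0.5, 48% of log2 1, 64% of log2 2 and 90% of log2 4. How far these shares hold for the measured arrays was not tested.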

Additional observations from a re-analysis of the deposited data

Results flagged for a closer look

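For comm, 1 wild-type array stood apart from the other 5. Canton S replicate 1 gave 326 and the others 185 to 212, a gap of 0.759 of the range of the 6 log2 values, above the 95% limit of Dixon's test; chance passes that limit in about 1 of 20 groups. The rise of comm remained called without that array.

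The effects of the 2 nulls on klg differed, the log2 difference 2/v minus A2663/2 being 1.22 (SE 0.231, adjusted p = 0.047). The means were 734 ± 225 in 2/v and 307 ± 47.2 in A2663/2 (SD, n = 3 each), with no overlap. This call was lost under 16 of 19 alternatives, with adjusted p-values of 0.0118 to 0.176.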

How the results depend on the processing

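Sema1a kept its direction and its call null against wild type under all 19 alternatives, so the count of members called stayed at 1. The counts in BL15598 against Canton S, 2/v against A2663/2 and all 4 pairs stayed at 0 under every alternative. In 2/v against Canton S the 1 member called became 0 with median centring, quantile normalization, the replicate block or only the compared arrays, and 2 with the offset of 32, the dim filter or the trended prior; without single arrays it ran from 0 to 2. In A2663/2 against BL15598 it ran from 0 to 1 without single arrays, the 1 being NetB without Canton S replicate 2. The 10 calls of the pathway lists became 4 in the fit of 6 against 6 arrays with genotype ignored, and ran from 6 to 11 without single arrays. Signs of uncalled values turned for robo1 (-0.12) and the bright Dscam1 probe set (-0.13) with centring, and for Dscam1 also with quantile normalization (-0.12). Without single arrays the dim sli probe set ran from -0.76 to 0.02, robo1 from -0.03 to 0.09 and the bright Dscam1 probe set from -0.02 to 0.09. Causes were not tested.

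Scaling sets the split of all calls: 65.8% of 2528 null against wild type were higher as deposited, 37.1% of 3106 with centring and 52.1% of 2842 with quantile normalization, and the median log2 of all probe sets moved from 0.05 to -0.12 with centring. With only the compared arrays the calls over all probe sets were 1401 against 2528 null against wild type, 655 against 1281 in A2663/2 against BL15598, 715 against 1799 in BL15598 against Canton S, 85 against 174 in 2/v against A2663/2 and 195 against 384 in all 4 pairs. Without single arrays they fell as low as 798 in A2663/2 against BL15598 and 92 in 2/v against A2663/2, both without A2663/2 replicate 3. The replicate numbers showed no strong pairing of the arrays: 0 of 18 same-number pairs had a correlation of deviations over 0.1 (range -0.04 to 0.09). The mean correlation was 0.02 for same-number pairs and -0.01 for the others, and 7 of 12 arrays correlated best with their own number. With 3 arrays per genotype, a weak pairing cannot be told from none. The replicate block left Sema1a called (adjusted p = 0.031). The dim sli and Dscam1 probe sets, were removed by the dim filter, and no change in them could be read at their level.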

Other observations

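The wild-type stocks themselves differed in some guidance genes. Of the 60 pathway genes, 3 were higher and 1 lower in BL15598 than in Canton S, which is 6.67% against the background of 9.58%. Dscam3, a paralog of Dscam1, averaged 1001 ± 362 in BL15598 and 293 ± 28.7 in Canton S (log2 1.72, SE 0.229, adjusted p = 0.0013), and the nulls lay between, at 468 ± 66.1 in 2/v and 767 ± 91.4 in A2663/2 (SD, n = 3 each). The gene dnt, which encodes a receptor of the Ryk family, averaged 1482 ± 514 in BL15598 and 599.8 ± 115 in Canton S (log2 1.27, SE 0.234, adjusted p = 0.00801). Both nulls were also above Canton S in dnt, at 1256 ± 113 in 2/v and 1119 ± 149 in A2663/2. For otk the order was BL15598 over Canton S by 1.75 on the log2 scale (SE 0.317, adjusted p = 0.00735).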
